A study of Homo sapiens with 6 samples.

Results

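The genes described here are receptors of transforming growth factor beta (TGF-beta) and of bone morphogenetic proteins (BMPs), together with feedback and target genes. These are the inhibitory SMAD genes, which both pathways switch on, and the ID genes, which BMP signalling switches on. The list named 10 genes by their place in the pathway and was chosen with earlier results of these data known. A probe set belonged to one of them if the platform annotation gave it exactly 1 gene symbol. This found 22 probe sets of 9 genes among 54613 probe sets and 19775 genes. BMPR1A had no probe set of that kind and was not analysed here. All 6 arrays held RNA of Caco-2, a human colorectal adenocarcinoma line with enterocyte-like features. The first group of 3 arrays came from cells given an siRNA, a small interfering RNA, that targets SDC1, which encodes the heparan sulfate proteoglycan syndecan-1, and the second group of 3 from cells given a negative control siRNA. Both groups are therefore transfected cells of 1 line, the time after transfection is not given in the sources used here, and nothing says whether replicates were separate cultures, so each p-value reflects array-to-array spread that may be purely technical.

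TGF-beta binds the type II receptor TGFBR2, which then phosphorylates the type I receptor TGFBR1. BMPs act through BMPR2 and type I receptors such as BMPR1A. The activated type I receptors phosphorylate SMAD proteins, which enter the nucleus with SMAD4, and TGFBR3, betaglycan, is a proteoglycan that presents ligand to the signalling receptors. SMAD6 and SMAD7 are transcribed in response and block the receptors, and ID1, ID2 and ID3, which lack a basic DNA-binding region and hold back basic helix-loop-helix factors, are direct targets of BMP signalling. In the intestinal epithelium TGF-beta restrains proliferation, and BMP signals oppose stem cell renewal along the crypt.

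The deposited values are log2 signals relative to the median of the 6 arrays for each probe set, so a value of 0 is that median and no absolute level can be read. The spacing of the stored numbers gives only a rough brightness, a step class of 8 to 16, 4 to 8 or below 4 on the log2 scale, and chance can place some probe sets a class too high. Of the 22 probe sets, 6 were in the brightest class, 13 in the middle class and 3 in the dimmest. Precision is limited by there being 3 arrays per group.

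The siRNA target was lower in every array of its group. The SDC1 probe set 201286_at read -0.49, -0.61 and -0.33 in SDC1 siRNA replicates 1, 2 and 3, against 0.37, 0.36 and 0.33 in the control replicates, and 201287_s_at gave nearly the same values. At gene level SDC1 differed by -0.84 ± 0.08 (log2, standard error, limma adjusted p = 0.0246), 1.79-fold lower with SDC1 siRNA. At probe set level neither passed (limma adjusted p = 0.121 for each). Control replicate 2 stood somewhat apart: its values had a standard deviation of 0.186 over all probe sets, against 0.129 to 0.162 in the other arrays, and limma's array weight for it was the lowest at gene level (0.47). Of 10 epithelial marker genes 9 were measured, 7 of them in the brightest class (EPCAM, CDH1, CDX2 and keratins among them) and KRT20 in the dimmest. Their summed relative log2 signal was 0.15 to 0.38 with SDC1 siRNA and -0.32 to -0.28 with control siRNA. The sum over 4 endothelial markers was 0.16 to 0.36 with SDC1 siRNA and -0.75 to -0.31 with control siRNA. Over 8 fibroblast markers it was -0.14 to -0.01 with SDC1 siRNA and -0.37 to 0.97 with control siRNA, the highest value being that of control replicate 2. The fibroblast markers COL1A1, COL1A2 and THY1 were in the brightest class. So were the endothelial markers CDH5 and VWF, with KDR in the dimmest. Over 3 measured immune markers, with PTPRC in the dimmest class, the sum was -0.06 to 0.28 with SDC1 siRNA and -0.28 to 0.36 with control siRNA. In these lists 0 genes passed an adjusted p of 0.05 (limma), and at an unadjusted p under 0.05 stood 0 of 9 epithelial, 2 of 4 endothelial, 5 of 8 fibroblast and 1 of 3 immune genes, against 10.5% of all genes. Their part in the results below was not tested.

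Among the receptor and feedback genes, 0 of 22 probe sets and 0 of 9 genes passed an adjusted p of 0.05. The background is 0.0% of 54613 probe sets and 0.0253% of 19775 genes (5 genes, SDC1 among them). At an unadjusted p under 0.05 stood 2 of 22 probe sets, one of TGFBR2 and one of SMAD7, both lower with SDC1 siRNA. This is 9.09% against 8.33% of all probe sets (4.18% higher and 4.15% lower), so it is near the background. At gene level TGFBR2 and SMAD7 were again the 2 of 9, against 10.5% of all genes (5.37% higher and 5.15% lower). The groups did not overlap in 4 of 22 probe sets, 3 lower and 1 higher with SDC1 siRNA (18.2%, against 14.5% of all probe sets, 7.42% lower and 7.06% higher). At gene level they did not overlap in 4 of 9 genes, against 16.7% of all genes (8.45% lower and 8.21% higher). TGFBR2, SMAD7 and ID2 were on the lower side and TGFBR3 on the higher side.

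Most of the 22 probe sets leaned to lower values with SDC1 siRNA. The difference was below 0 in 16 of 22 probe sets, against 49.8% of all probe sets, and in 6 of 9 genes, against 48.0% of all genes. The median log2 difference over the 22 was -0.10, against 0.00 over all probe sets, and over the 9 genes it was -0.14, against 0.01 over all genes. BMPR2 alone gave 6 of the 16, and probe sets of 1 gene are not separate measurements. Leaving out any 1 array left 15 to 17 probe sets below 0, with a median from -0.13 to -0.05, weakest without control replicate 2. The median over the 9 genes was -0.07 without control replicate 3, -0.08 without control replicate 2 or without SDC1 siRNA replicate 2, and -0.22 without SDC1 siRNA replicate 3. By array, the median of the 22 probe sets was -0.01, -0.07 and -0.02 in SDC1 siRNA replicates 1, 2 and 3, against -0.01, 0.08 and 0.02 in control replicates 1, 2 and 3. The lowest of these medians thus belonged to SDC1 siRNA replicate 2 and the highest to control replicate 2, while replicate 1 of both groups read alike.

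**Figure D1:**
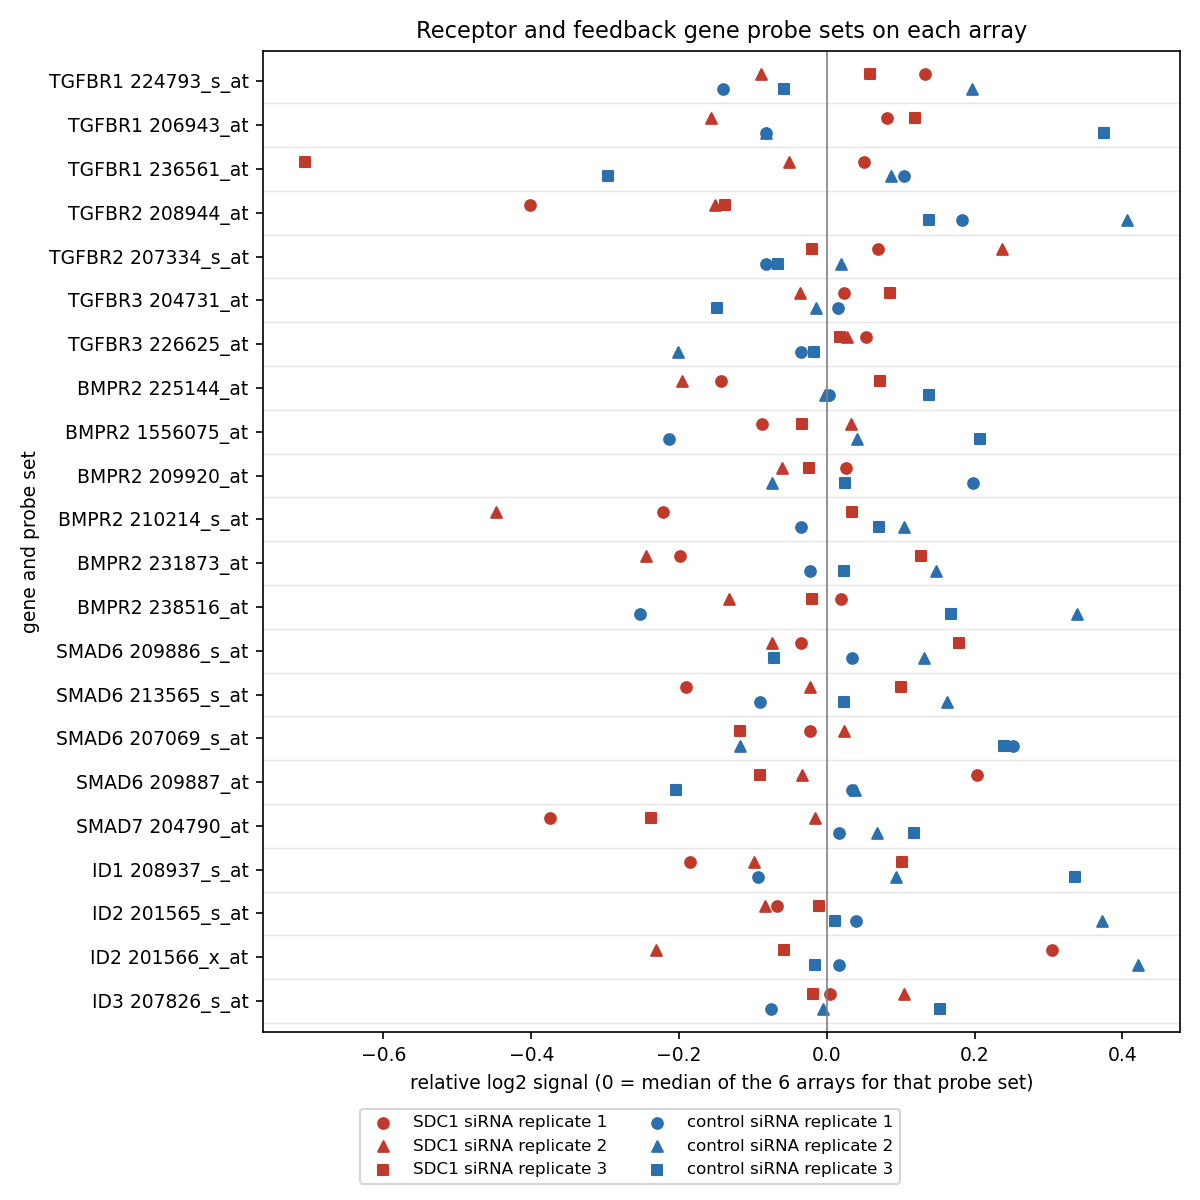
Relative log2 signal (x axis, 0 is the median of the 6 arrays) of the 22 probe sets (rows) in the 3 SDC1 siRNA arrays (red, upper line of each row) and the 3 control siRNA arrays (blue, lower line), with a marker shape per replicate. The groups lie apart only for TGFBR2 208944_at, TGFBR3 226625_at, SMAD7 204790_at and ID2 201565_s_at.

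TGFBR2, the ligand-binding receptor kinase, gave the largest difference of the 22 in 1 of its 2 probe sets. Probe set 208944_at read -0.40, -0.15 and -0.14 in SDC1 siRNA replicates 1, 2 and 3, against 0.18, 0.41 and 0.14 in control replicates 1, 2 and 3. All 3 SDC1 siRNA arrays lay below all 3 control arrays, with SDC1 siRNA replicate 1 and control replicate 2 at the ends. The means were -0.23 ± 0.15 with SDC1 siRNA and 0.24 ± 0.14 with control siRNA (SD, n = 3 each). The difference was -0.47 ± 0.11 (log2, standard error), 1.39-fold lower with SDC1 siRNA, with a 95% interval from -0.73 to -0.22. It ranked 323 of 54613 by p (unadjusted p = 0.0024) and did not pass after adjustment (limma adjusted p = 0.401). Permuting the group labels exactly (two-sided) gave p = 0.1, the smallest value this design allows. Leaving out 1 array at a time gave differences from -0.52 to -0.39, weakest without SDC1 siRNA replicate 1.

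The other TGFBR2 probe set, 207334_s_at, was in the dimmest class and did not show this. It read 0.07, 0.24 and -0.02 in SDC1 siRNA replicates 1, 2 and 3, against -0.08, 0.02 and -0.07 in the control replicates. Here the SDC1 siRNA arrays were on the high side and the groups overlapped, with a difference of 0.14 ± 0.09 (interval from -0.07 to 0.35, limma adjusted p = 0.736). Without SDC1 siRNA replicate 2 it was 0.07. Taken within each array, 208944_at minus 207334_s_at was -0.47, -0.39 and -0.12 in SDC1 siRNA replicates, against 0.27, 0.39 and 0.20 in control replicates. The 2 probe sets thus differed by -0.61 in their response, with no overlap between groups (exact permutation p = 0.1, the smallest possible, and 0.939 after Benjamini-Hochberg adjustment over 27 pairs of probe sets of the same gene). Among the 27 pairs this was the 1 pair with groups apart. Random labels would set a given pair apart with probability 0.1, so 1 of 27 is no excess. The gene-level value took the brighter probe set alone, -0.47 ± 0.10 (limma adjusted p = 0.181), whereas the mean of both probe sets gave -0.17 (adjusted p = 0.529).

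The RefSeq promoter table (GRCh38.p14, 250 bases before to 50 after each start) holds 2 start sites for TGFBR2, whose windows overlap, and both are shown because this gene had the lowest p of the group. Capitals mark GTCT or its reverse complement AGAC, the core box that SMAD proteins bind, which 84.0% of 35116 promoter windows of this length contain on either strand. Each TGFBR2 window holds 1 match.
TGFBR2 upstream start, chr3:30606106-30606405, plus strand: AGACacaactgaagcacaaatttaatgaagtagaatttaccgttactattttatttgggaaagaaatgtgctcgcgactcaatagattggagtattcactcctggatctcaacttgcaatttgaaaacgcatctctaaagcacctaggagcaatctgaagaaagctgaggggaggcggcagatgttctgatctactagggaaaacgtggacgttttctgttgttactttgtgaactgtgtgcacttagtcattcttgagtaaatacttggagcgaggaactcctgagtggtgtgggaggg
TGFBR2 downstream start, chr3:30606351-30606650, plus strand: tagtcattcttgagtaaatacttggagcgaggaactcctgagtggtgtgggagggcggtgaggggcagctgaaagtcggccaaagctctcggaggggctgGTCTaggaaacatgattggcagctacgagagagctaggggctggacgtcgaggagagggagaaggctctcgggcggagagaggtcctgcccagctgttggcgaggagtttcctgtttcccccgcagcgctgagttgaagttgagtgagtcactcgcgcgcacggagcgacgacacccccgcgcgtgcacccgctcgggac

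TGFBR1, the type I kinase that TGFBR2 activates, showed no difference that passed in any of its 3 probe sets. The brightest, 224793_s_at, read 0.13, -0.09 and 0.06 in SDC1 siRNA replicates 1, 2 and 3, against -0.14, 0.20 and -0.06 in control replicates, so the groups overlapped (0.03 ± 0.11, interval from -0.22 to 0.29). Probe set 206943_at differed by -0.06 ± 0.14. Probe set 236561_at differed by -0.20 ± 0.20, with SDC1 siRNA replicate 3 at -0.71 and control replicate 3 at -0.30, the lowest array of each group. It was 0.04 without SDC1 siRNA replicate 3 and -0.33 without control replicate 3.

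TGFBR3, betaglycan, was the member with the highest gene-level difference. Its probe set 226625_at read 0.05, 0.03 and 0.02 in SDC1 siRNA replicates 1, 2 and 3, against -0.04, -0.20 and -0.02 in the control replicates. The groups did not overlap, but the nearest arrays, replicate 3 of each group, were close together, and control replicate 2 lay lowest. The difference was 0.12 ± 0.09 (limma adjusted p = 0.756), or 0.06 without control replicate 2. The second probe set, 204731_at, overlapped between groups at 0.07 ± 0.09. The mean of the 2, both in the brightest class, was 0.10 ± 0.07 with a 95% interval from -0.06 to 0.25 (limma adjusted p = 0.666).

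BMPR2, the type II receptor for BMPs, was measured by 6 probe sets, all with differences below 0, from -0.26 to -0.04, and with overlapping groups in each. The brightest, 225144_at, read -0.14, -0.20 and 0.07 in SDC1 siRNA replicates 1, 2 and 3, against 0.00, -0.00 and 0.14 in the control replicates. The largest difference was that of 210214_s_at, at -0.22, -0.45 and 0.03 in SDC1 siRNA replicates, against -0.03, 0.10 and 0.07 in control replicates. In both of these and in 231873_at, SDC1 siRNA replicates 1 and 2 were below every control array and SDC1 siRNA replicate 3 was not. The fitted differences were -0.14 ± 0.10 for 225144_at, -0.26 ± 0.12 for 210214_s_at (unadjusted p = 0.0695) and -0.15 ± 0.12 for 231873_at, with limma adjusted p of 0.756, 0.632 and 0.761. Without SDC1 siRNA replicate 3 they were -0.22, -0.38 and -0.27, and without SDC1 siRNA replicate 2 they were -0.08, -0.14 and -0.08. The remaining 3 probe sets, 1556075_at, 209920_at and 238516_at, were at -0.04 ± 0.11, -0.07 ± 0.09 and -0.13 ± 0.15. The last of these was -0.00 without control replicate 2 and -0.30 without control replicate 1.

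SMAD7, the inhibitory SMAD that blocks both TGF-beta and BMP receptors, was measured by 1 probe set of the brightest class, 204790_at. It read -0.37, -0.02 and -0.24 in SDC1 siRNA replicates 1, 2 and 3, against 0.02, 0.07 and 0.12 in control replicates 1, 2 and 3. The groups did not overlap, but SDC1 siRNA replicate 2 lay just under the lowest control array. The means were -0.21 ± 0.18 with SDC1 siRNA and 0.07 ± 0.05 with control siRNA (SD, n = 3 each). The difference was -0.28 ± 0.11 (log2, standard error), 1.21-fold lower with SDC1 siRNA, with a 95% interval from -0.52 to -0.04. The unadjusted p = 0.029 did not hold after limma's adjustment over all probe sets (adjusted p = 0.548) or, at gene level, over all genes (adjusted p = 0.375). Leaving out 1 array gave differences from -0.37 without SDC1 siRNA replicate 2 to -0.19 without SDC1 siRNA replicate 1, with unadjusted p from 0.00679 to 0.111.

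SMAD6, the inhibitory SMAD that acts mainly on BMP receptors, did not share this pattern. Its probe set 213565_s_at read -0.19, -0.02 and 0.10 in SDC1 siRNA replicates 1, 2 and 3, against -0.09, 0.16 and 0.02 in control replicates. Its 4 probe sets gave -0.01 ± 0.10 and -0.07 ± 0.11 in the middle class and -0.16 ± 0.12 and 0.07 ± 0.11 in the dimmest, all with overlapping groups. The gene-level difference was -0.04 ± 0.09, with a 95% interval from -0.24 to 0.17. Whether the SMAD6 and SMAD7 differences differ from each other was not tested.

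Promoter windows of the inhibitory SMADs are shown because SMAD proteins act on these genes directly and SMAD6 alone among the 20 windows of the 10 genes holds the palindrome GTCTAGAC. This palindrome consists of 2 adjoining boxes, begins 12 bases before the SMAD6 start, and is found in 71 of 35116 promoter windows (0.2%). Of the 3 SMAD7 windows in the table, the one with the most single boxes, 5, is shown. The median over all windows was 2, and the BMPR2 window holds 6. Capitals mark GTCT or AGAC as before. At least 1 box was found in 15 of the 20 windows, against 84.0% of all windows. The GC-rich box GGCGCC was found in 2 of the 20 windows, against 19.2% of all windows. A match describes letters in the window and is no evidence of binding.
SMAD6, chr15:66701986-66702285, plus strand: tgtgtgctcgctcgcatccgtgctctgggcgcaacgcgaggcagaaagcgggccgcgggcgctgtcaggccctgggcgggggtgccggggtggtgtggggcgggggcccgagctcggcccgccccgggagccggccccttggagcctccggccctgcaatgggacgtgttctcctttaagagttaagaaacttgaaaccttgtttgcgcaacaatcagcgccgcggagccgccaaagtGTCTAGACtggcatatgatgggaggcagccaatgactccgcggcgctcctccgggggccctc
SMAD7, chr18:48949284-48949583, minus strand: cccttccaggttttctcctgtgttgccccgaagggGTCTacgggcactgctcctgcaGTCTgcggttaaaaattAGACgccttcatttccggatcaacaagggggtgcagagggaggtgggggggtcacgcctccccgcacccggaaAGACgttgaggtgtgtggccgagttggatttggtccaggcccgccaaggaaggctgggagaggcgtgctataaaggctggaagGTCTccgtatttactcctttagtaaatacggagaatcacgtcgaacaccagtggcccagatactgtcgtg

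The ID genes, targets of BMP signalling, gave no difference that passed. ID1 (208937_s_at) read -0.19, -0.10 and 0.10 in SDC1 siRNA replicates 1, 2 and 3, against -0.09, 0.09 and 0.34 in control replicates. The groups overlapped, and the difference of -0.17 ± 0.13 (limma adjusted p = 0.759) was -0.06 without control replicate 3. ID2 (201565_s_at, brightest class) read -0.07, -0.08 and -0.01 in SDC1 siRNA replicates, against 0.04, 0.37 and 0.01 in control replicates. Its groups lay apart by a narrow margin, and control replicate 2 stood far above the other arrays. The difference was -0.20 ± 0.11 (interval from -0.45 to 0.06, limma adjusted p = 0.686), and -0.08 without control replicate 2. A second ID2 probe set, 201566_x_at, overlapped at -0.14 ± 0.16. Probe set 213931_at, which the annotation gives to both ID2 and ID2B and which is therefore not among the 22, was at -0.03 ± 0.12. ID3 (207826_s_at) read 0.00, 0.11 and -0.02 in SDC1 siRNA replicates, against -0.08, -0.00 and 0.15 in control replicates, a difference of 0.01 ± 0.09 with an interval from -0.20 to 0.21.

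**Figure D2:**
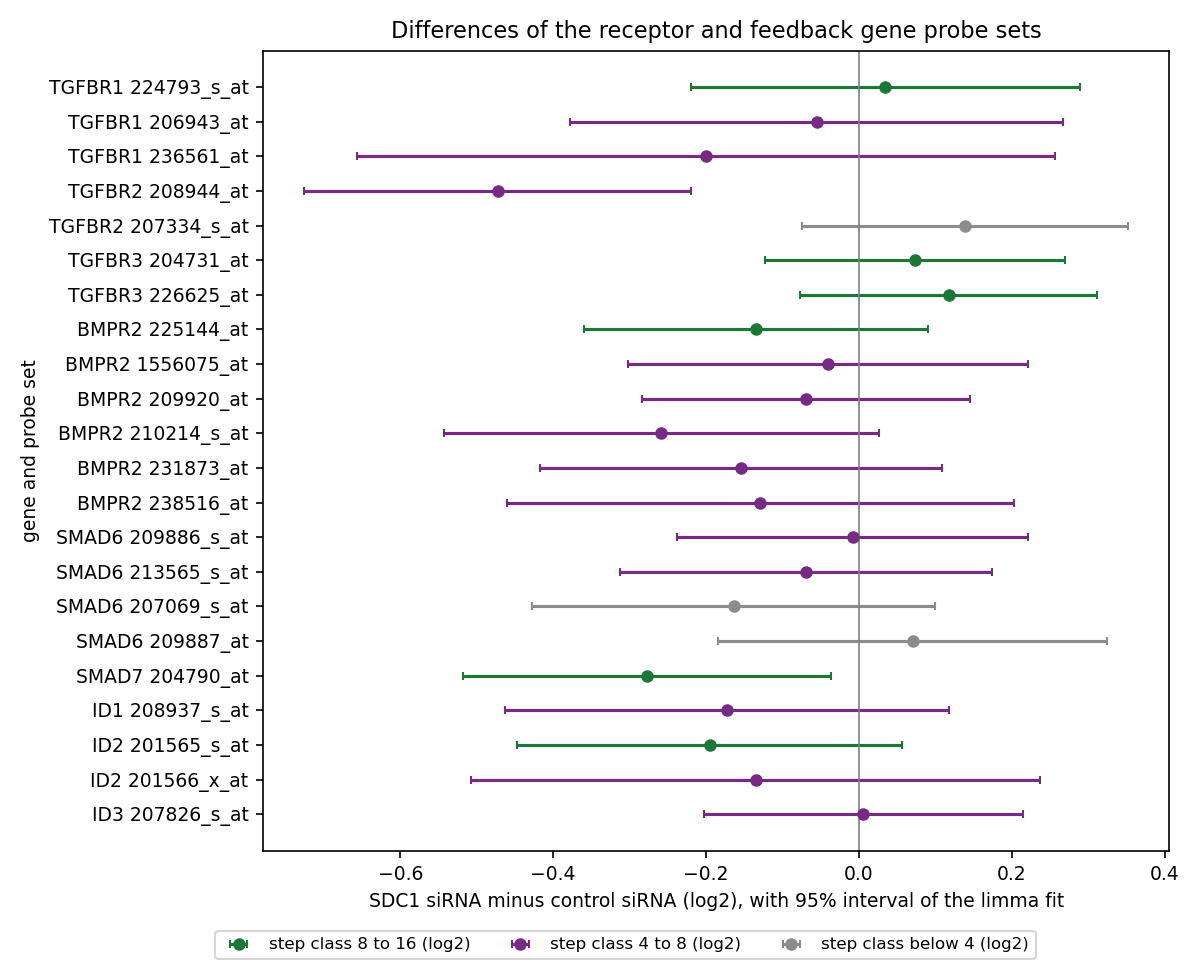
Difference between SDC1 siRNA and control siRNA (x axis, log2) with its 95% interval from the limma fit for the 22 probe sets (rows), coloured by step class. Intervals exclude 0 only for TGFBR2 208944_at (-0.73 to -0.22) and SMAD7 204790_at (-0.52 to -0.04), before any adjustment.

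**Figure D3:**
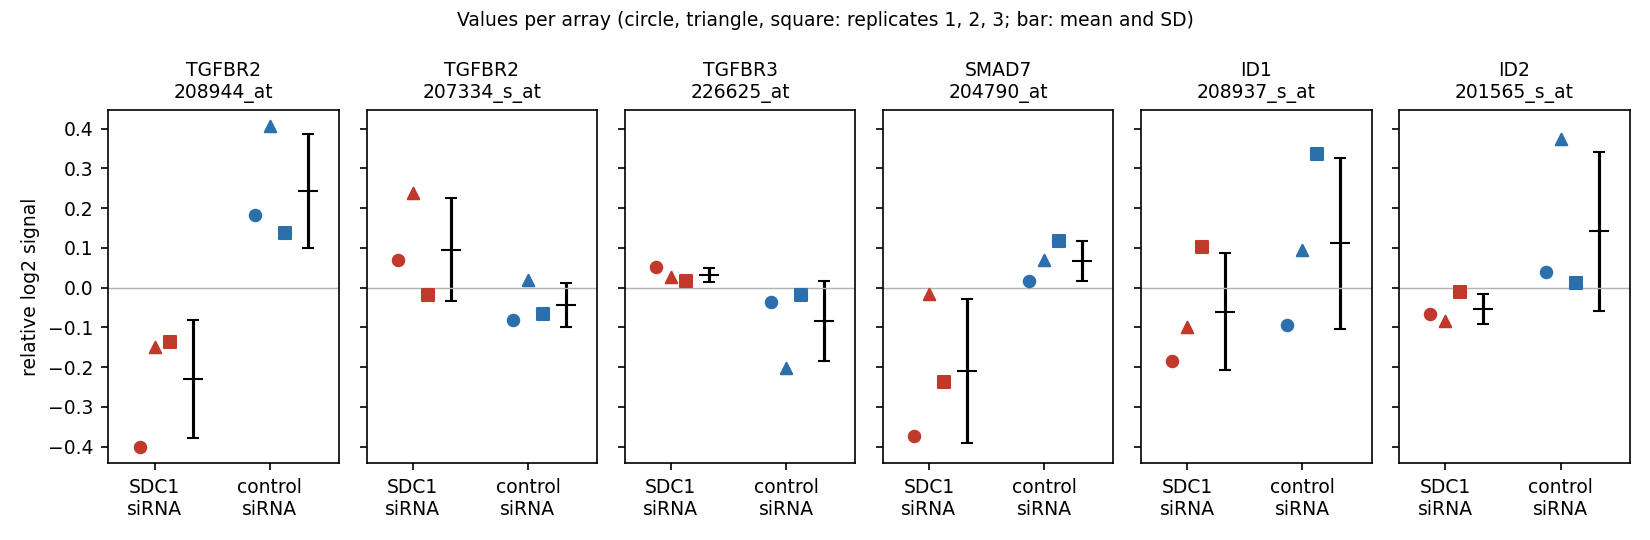
Relative log2 signal (y axis) of 6 probe sets of TGFBR2, SMAD7, ID2, ID1 and TGFBR3 in the 3 SDC1 siRNA arrays (left, red) and 3 control siRNA arrays (right, blue) of each panel, with mean and SD beside each group. The TGFBR2 groups lie apart for 208944_at (-0.47) and overlap for 207334_s_at (0.14, interval from -0.07 to 0.35).

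The remaining pathway genes were taken from a list of 67 ordered by role, of which 63 were measured. This list was chosen with earlier results of these data known, so its counts are no independent support. After limma's adjustment over all genes 0 of 63 passed, and 10 of 63 were at an unadjusted p under 0.05, 4 higher and 6 lower with SDC1 siRNA, against 10.5% of all genes (5.37% higher and 5.15% lower). The median gene-level difference of the 63 was 0.02, against 0.01 over all genes, with 40 above 0 and 23 below. Of all genes 48.0% lay below 0.

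The 13 ligands had a median of 0.06, and 10 of them lay above 0, against 48.0% of all genes below 0. Of these, TGFB2 and BMP7 were at only 0.009 and 0.005. BMP5 was at 0.04, and at -0.04 when its 2 probe sets were averaged. BMP6, a BMP known for its part in iron regulation, read 0.26, 0.04 and 0.00 in SDC1 siRNA replicates 1, 2 and 3, against -0.00, -0.47 and -0.34 in control replicates. The difference was 0.37 ± 0.13 (log2; limma adjusted p = 0.365) from the brightest of its 3 probe sets, and 0.04 with the mean of all 3. INHBA, the activin A subunit, was at 0.23 ± 0.10, and at 0.13 without control replicate 3 or without probe sets marked _x_at or _s_at. Among 9 other receptors the median was -0.02. ACVRL1, a type I receptor for BMP9 best known in endothelium, was at 0.24 ± 0.11, or 0.09 without probe sets marked _x_at or _s_at. AMHR2, the receptor for anti-Müllerian hormone, was at 0.17 ± 0.11, and at 0.06 without control replicate 2.

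Of 7 SMAD transducers and their anchor, SMAD9, a BMP-activated SMAD, was at -0.18 ± 0.07 (limma adjusted p = 0.455), and ZFYVE9, which anchors SMADs near the receptor, at 0.24 ± 0.09 (adjusted p = 0.413). In both the groups lay apart. SMAD9 was at -0.11 without probe sets marked _x_at or _s_at, and ZFYVE9 at 0.13 with its 2 probe sets averaged and 0.15 without control replicate 2. Of 11 intracellular inhibitors, the SMAD phosphatase PPM1A was at 0.22 ± 0.09 (adjusted p = 0.422), but at -0.00 when its 6 probe sets were averaged and -0.05 without those marked _x_at or _s_at. SKIL, the SnoN corepressor, was at -0.30 ± 0.13 (adjusted p = 0.472), and at -0.05 when its 5 probe sets were averaged and -0.17 without SDC1 siRNA replicate 2.

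Of 12 extracellular antagonists and latency proteins, 11 were measured, 8 above 0 and 3 below. SOSTDC1, a secreted BMP and Wnt antagonist, read -0.40, -0.23 and -0.28 in SDC1 siRNA replicates 1, 2 and 3, against 0.41, 0.23 and 0.34 in control replicates. It differed by -0.63 ± 0.08 (limma adjusted p = 0.0697), and passed with array weights (adjusted p = 0.0307) and with the dimmest class left out (adjusted p = 0.0474). It did not pass with the replicate block (adjusted p = 0.288) or with any 1 array left out (adjusted p from 0.106 to 0.408). The BMP antagonist noggin, NOG, was at -0.25 ± 0.08 (adjusted p = 0.327) from 1 probe set in the dimmest class. The other 9 antagonists lay between -0.02 and 0.11. Of 12 measured target genes, 6 were above 0 and 6 below. SNAI2, the Slug repressor that TGF-beta induces in many cells, was at -0.89 ± 0.11 (adjusted p = 0.0697) and passed under the same 2 settings (adjusted p = 0.038 and 0.0478). It did not pass with the replicate block (adjusted p = 0.107) or with any 1 array left out (adjusted p from 0.107 to 0.408). HEY1, a target of BMP and Notch signals, read -0.28, -0.09 and -0.08 in SDC1 siRNA replicates, against 0.08, 0.10 and 0.21 in control replicates. Its difference was -0.28 ± 0.08 (adjusted p = 0.306), with 2 probe sets that gave -0.28 each.

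**Figure D4:**
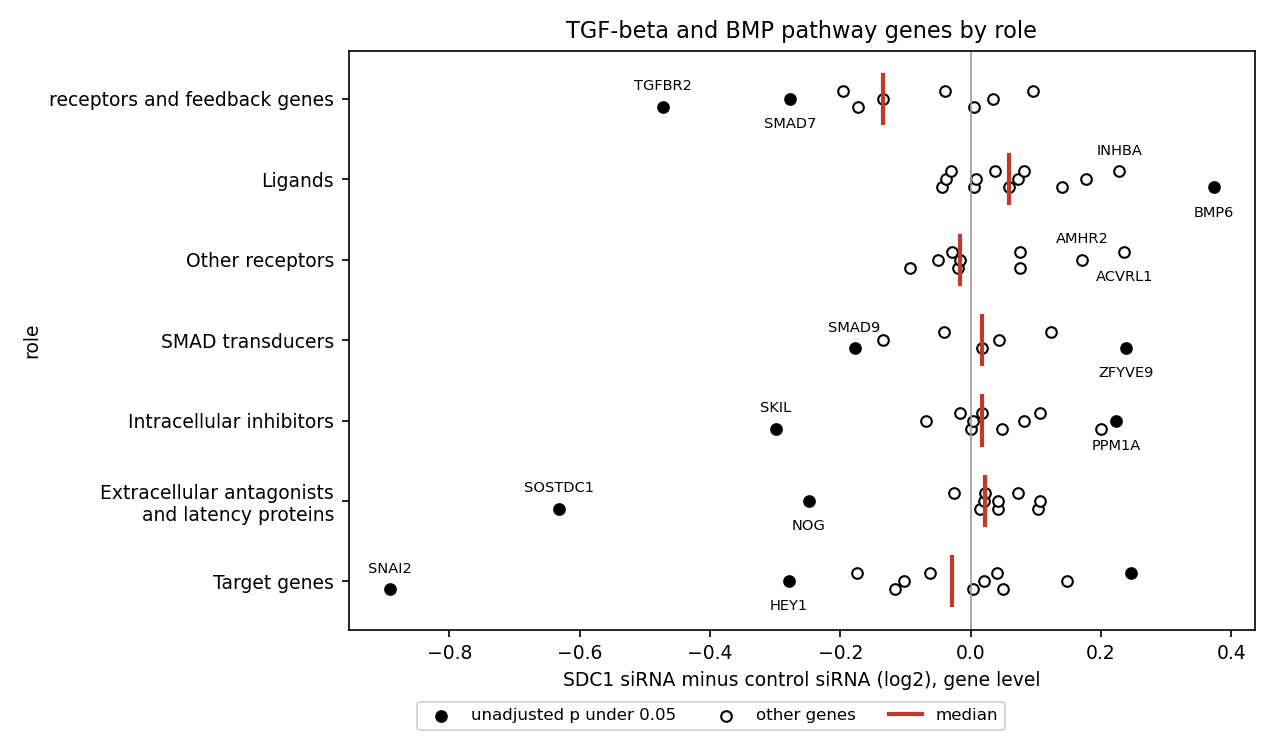
Gene-level difference between SDC1 siRNA and control siRNA (x axis, log2) for the 9 receptor and feedback genes (top row) and for 63 other pathway genes by role, 1 point per gene, filled at an unadjusted p under 0.05, with the median of each row as a red line. The medians lie between -0.14 and 0.06, and SNAI2 (-0.89), SOSTDC1 (-0.63) and TGFBR2 (-0.47) lie farthest from 0.

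By Pearson correlation with the gene-level values of TGFBR2 over the 6 arrays, the 5 most similar genes were SLC2A1 (r = 0.998), LMBRD2 (0.997), MRPL54 (0.995), ZNF818P (0.994) and RFC5 (0.991). The points share the arrays and the difference between the groups, and 460 genes exceeded a correlation of 0.9. The glucose transporter gene SLC2A1 read -0.20, -0.09 and -0.07 in SDC1 siRNA replicates 1, 2 and 3, against 0.08, 0.18 and 0.07 in control replicates. Like TGFBR2 it was lowest in SDC1 siRNA replicate 1 and highest in control replicate 2, over a smaller range. These values describe 6 arrays and carry no test.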

How the data were processed

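Per the labels' protocols, biotinylated cRNA from 3 SDC1 siRNA and 3 control siRNA samples was run on Affymetrix arrays. The deposited log2 values come from RMA (submitters' processing notes), a method of background correction, quantile normalization and probe summary. No source used here gives its version or explains the centring. Since 54675 of 54675 probe sets have a median of 0 over the arrays (tolerance 1e-06), level and detection could not be filtered on. Step classes were read from the spacing of single-precision numbers (tolerance 6e-08). They put 18.8% of probe sets in the class 8 to 16, 44.8% in 4 to 8 and 36.4% in the dimmest.

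Leaving out 62 controls, 41091 probe sets had 1 symbol in the platform annotation, 1801 several and 11721 none. Each gene was averaged over the probe sets of its brightest class, a rule chosen in earlier work after the values were seen. The test was limma 3.58.1 (lmFit, eBayes, R 4.3.3) with group as its term, adjusted by Benjamini-Hochberg over 54613 probe sets or 19775 genes at 0.05. On simulated data with planted changes, high recovery was required only at the largest change, which exceeded every member difference. Permutations used scipy 1.17.1.

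Named by rule are all measured members with every probe set, and SDC1. So are up to 2 genes per pathway role by p and the 5 genes most like TGFBR2. Other pathway genes were named after their values were seen, and cell type markers came from the marker lists. Members and lists were chosen with earlier results of these data known. The settings varied were the replicate block, single arrays, normalization, weights, robust variance, dim classes, the probe set rule and the adjusted p. No batch label was found in the sources, so batch was not tested. Any pair of arrays shared at most 52 of 19775 gene values, counted as exactly equal.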

Additional observations from a re-analysis of the deposited data

How the results depend on the processing

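None of the 22 probe sets or 9 member genes passed an adjusted p of 0.05 (limma) in any of the settings run, with 1 to 3 of them at an unadjusted p under 0.05. Over all 54613 probe sets the count of calls was 0 (4547 at an unadjusted p under 0.05), and it was 3 with array weights and 2 among the brighter classes. Over all genes it was 5, against 36 with array weights, 10 among the brighter classes, 9 after quantile normalization of the centred values, 3 when a gene's probe sets were all averaged, and 0 at an adjusted p of 0.01. It was 1 without control replicate 3 (2430 genes at an unadjusted p under 0.05) and 0 without any other single array (1388 to 2100 genes). Deviations of same-numbered arrays from their group means correlated at -0.01, -0.26 and -0.12 over genes. For arrays of different number in the 2 groups the correlations ran from -0.143 to 0.215. With 3 arrays per group these values cannot show whether arrays were paired. With the replicate block 0 genes passed (1643 at an unadjusted p under 0.05), and the adjusted p of the TGFBR2 probe set 208944_at was 0.596. A block of complete pairs cannot move a difference of group means. Both TGFBR2 probe sets, SMAD7, SMAD6 207069_s_at, all but 2 of the 6 BMPR2 probe sets, ID1, ID2 201565_s_at and both TGFBR3 probe sets kept their sign in every setting run (BMPR2 238516_at only just, at -0.00 without control replicate 2), whereas all 3 TGFBR1 probe sets, 3 of 4 for SMAD6, BMPR2 1556075_at and 209920_at, ID2 201566_x_at and ID3 did not. Averaging all probe sets gave -0.17 for TGFBR2, against -0.47 from the brighter one. With 3 arrays per group and no absolute levels, low signal over background could not be judged beyond the step class.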

Other observations

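The TGF-beta ligand genes were near 0: TGFB1 was at -0.04 ± 0.09, TGFB2 (dimmest class) at 0.01 ± 0.07 and TGFB3 at -0.04 ± 0.07 (log2, standard error, gene level). The BMP ligand genes BMP2 and BMP4 were at 0.08 ± 0.09 and -0.03 ± 0.07. The transducers SMAD3 and SMAD4 were at 0.02 ± 0.09 and 0.04 ± 0.09, and SMAD2 at 0.12 ± 0.07 with groups that lay apart (limma adjusted p = 0.565). The fourth member of the ID family, ID4, was at 0.02 ± 0.09. Among targets of TGF-beta, TGFBI, which encodes a secreted matrix protein, was at -0.12 ± 0.07 with groups that lay apart (limma adjusted p = 0.609). CCN2, connective tissue growth factor, was at -0.17 ± 0.11 in the dimmest class, and THBS1, thrombospondin-1, at 0.05 ± 0.09. ATOH8, a helix-loop-helix factor induced by BMP signals, was at 0.25 ± 0.09 (unadjusted p = 0.0274, limma adjusted p = 0.409). Its groups overlapped, and it was at 0.11 when its 3 probe sets were averaged. These genes were picked from the pathway list after their values were seen, and 0 of them passed.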
